A study of Mus musculus with 27 samples.

Results

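The nuclear receptors of the PPAR, RXR and LXR families were measured in C2C12 cells that expressed the transcription factor NFIA or a mutant of it. The set was fixed by gene symbol and holds 8 of the 24825 gene rows of the expression tables, namely the PPAR genes Pparg, Ppara and Ppard, the RXR genes Rxra, Rxrb and Rxrg, and the LXR genes Nr1h2 (LXRβ) and Nr1h3 (LXRα). Levels are given as FPKM, the fragments of a gene divided by its length and by the mapped fragments of the library, which sets genes of different length on a common scale.

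PPARs, RXRs and LXRs are ligand-activated transcription factors. PPARs and LXRs bind DNA as heterodimers with an RXR, PPARs mostly at direct repeats spaced by a single base and LXRs at more widely spaced repeats, so that RXR is the shared partner of both. PPARγ is the master regulator of adipocyte differentiation, and its gene has an upstream promoter and a downstream promoter, the latter giving the Pparg2 form that is characteristic of adipocytes. PPARα and PPARδ drive fatty acid oxidation, LXRs sense oxysterols and raise cholesterol export and fatty acid synthesis genes, and forskolin activates adenylyl cyclase and raises cAMP, the signal by which β-adrenergic input reaches brown adipocytes.

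RNA-seq was performed on polyadenylated RNA of C2C12 cells, a mouse myoblast line. Control cells, cells expressing full-length NFIA and cells expressing the Δpro#3 mutant, which lacks the most C-terminal stretch of the proline-rich domain of NFIA, were each collected on day 0 and day 7, the latter also following 4 h of 10 µM forskolin (fsk), with 3 samples in each of the 9 groups and 27 in all. The labels give all groups the same induction protocol from confluence on, with isobutylmethylxanthine, indomethacin, dexamethasone, insulin, T3 and rosiglitazone for 48 h and then insulin, T3 and rosiglitazone alone, while the study's methods refer elsewhere for C2C12 cells. Rosiglitazone is a PPARγ agonist, so that by this protocol the day 7 control cells too had a PPARγ ligand in their medium, and day 0 is before induction. Both NFIA forms were FLAG-tagged and delivered by retrovirus into one established line, and nothing in the labels says that the 3 samples of a group came from separate cultures, so p-values measure the spread between these samples, which may be technical. In bulk RNA, fewer cells of a kind and less RNA per cell cannot be told apart. One FPKM value covers all transcripts of a gene, so the Pparg1 and Pparg2 forms are summed here.

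Promoter windows of Pparg, Rxra, Rxrg and Nr1h3 are shown, as examples among the 8 genes, all of which were higher with full-length NFIA at day 7, because NFI proteins bind the half-site TTGGCA, read as TGCCAA on the other strand, and nuclear receptors the half-site AGGTCA, read as TGACCT on the other strand. Each is 250 bases long, ends just before a RefSeq transcript start, is written 5′ to 3′ on the gene's strand and follows the GRCm38.p6 build. Capitals mark either half-site.
Pparg, first start, chr6:115360894-115361143, plus strand: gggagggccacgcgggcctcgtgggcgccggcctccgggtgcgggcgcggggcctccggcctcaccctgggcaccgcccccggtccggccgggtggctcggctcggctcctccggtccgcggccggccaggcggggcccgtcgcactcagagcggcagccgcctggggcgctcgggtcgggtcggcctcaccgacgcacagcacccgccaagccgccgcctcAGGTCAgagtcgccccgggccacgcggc
Pparg, start 60.9 kb further downstream, chr6:115421816-115422065, plus strand: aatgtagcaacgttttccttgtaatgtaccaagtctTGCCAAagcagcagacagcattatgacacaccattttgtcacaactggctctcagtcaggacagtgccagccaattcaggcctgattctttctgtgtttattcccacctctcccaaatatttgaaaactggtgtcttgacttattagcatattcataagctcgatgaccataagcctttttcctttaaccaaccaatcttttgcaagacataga
Rxra, first start, chr2:27676951-27677200, plus strand: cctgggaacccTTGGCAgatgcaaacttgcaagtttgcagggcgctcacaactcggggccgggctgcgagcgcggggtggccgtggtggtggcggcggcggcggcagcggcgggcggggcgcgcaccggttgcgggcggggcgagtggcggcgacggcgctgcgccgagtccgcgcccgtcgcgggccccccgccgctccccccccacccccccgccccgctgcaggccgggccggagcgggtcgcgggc
Rxrg, first start, chr1:167598112-167598361, plus strand: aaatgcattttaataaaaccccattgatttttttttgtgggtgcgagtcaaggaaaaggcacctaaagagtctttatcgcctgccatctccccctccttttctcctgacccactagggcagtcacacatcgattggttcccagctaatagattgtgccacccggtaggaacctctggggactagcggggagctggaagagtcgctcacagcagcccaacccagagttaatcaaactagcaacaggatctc
Nr1h3, first start, chr2:91195117-91195366, minus strand: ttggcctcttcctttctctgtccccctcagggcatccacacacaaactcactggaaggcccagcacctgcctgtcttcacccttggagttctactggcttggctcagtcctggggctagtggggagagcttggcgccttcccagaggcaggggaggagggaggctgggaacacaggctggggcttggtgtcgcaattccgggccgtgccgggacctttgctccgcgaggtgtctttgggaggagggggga

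The upstream Pparg window held 82.4% G and C and an AGGTCA 28 bases before the start, whereas the downstream Pparg window held 40.8% G and C and a TGCCAA 214 bases before the start. The Rxra window held TTGGCA 239 bases before its start, and the Rxrg and Nr1h3 windows shown held neither half-site. At the second starts of these genes, not shown, the Rxrg window held AGGTCA 88 bases before the start, the Rxra window a receptor half-site 87 and another 48 bases before it, and the Pparg window an AGGTCA 9 bases before it. The Ppara window, not shown, held neither half-site. Among the 14 windows of the 8 genes, 2 held the NFI half-site, against 12.3% of all 32851 mouse promoter windows of this length, and 4 held the receptor half-site, against 14%. None of the 14 held the full NFI palindrome or the direct repeats DR1 and DR4 of the receptor half-site, which occurred in 0.0365%, 0.0335% and 0.0152% of all windows. Both strands were searched for the letters given in full, and such matches are letters in a window, not evidence of binding. The shorter TTGGC, or GCCAA on the other strand, also stands in the upstream Pparg and the Nr1h3 windows shown and was not counted.

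On the NCBIM37 build (mm9), which the expression tables follow, Pparg lies at chr6:115311239-115440419, Ppara at chr15:85565413-85633249 and Ppard at chr17:28369699-28438414, all on the plus strand. Rxra lies at chr2:27531960-27618477, Rxrb at chr17:34168757-34175338 and Rxrg at chr1:169528515-169569754 on the plus strand, and Nr1h2 at chr7:51804986-51809321 and Nr1h3 at chr2:91024218-91042991 on the minus strand. Fragments were counted per gene on the matched strand.

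The libraries held 9567769 to 27230965 fragments (median 17707223). Nfia itself was at 7.35 FPKM or below in every control sample and at 225 or above wherever either form was introduced, as labelled. The 7.35 FPKM was that of control replicate 2 at day 0, against 0.879 and 0.175 in replicates 1 and 3. Full-length NFIA-expressing cells had 225 to 250.2 FPKM of it at day 0, 457 to 528 at day 7 and 497 to 594 after fsk treatment, against 397 to 423, 374 to 480 and 262 to 344 in Δpro#3 mutant-expressing cells. The mutant was thus the higher of both forms at day 0 and the lower after fsk treatment, without overlap, and the part of this in comparisons between both forms was not tested. The summed level of 12 muscle markers at day 7 was 11152 to 12984 FPKM in control cells, 1941 to 2650 with full-length NFIA and 12555 to 13080 with the Δpro#3 mutant, and that of 10 adipocyte markers was 210 to 242, 13111 to 14497 and 417 to 1762. Endothelial markers summed to under 1.5 FPKM in every group. The leukocyte markers summed to 8.12 to 32.3, with 6 of 8 genes at means under 1 FPKM. Within the Δpro#3 mutant, replicate 1 stood apart, with an adipocyte marker sum of 1762 at day 7 against 417 and 479 in the other two, and of 508 after fsk treatment against 163 and 202. Several results that rest on it are given with and without it, and the others with all samples only. A call lost without any of several samples was lost when each of them was left out singly.

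Among the PPARs, Pparg was the gene that separated the groups. In control cells it was at 2.43, 2.24 and 2.09 FPKM at day 0, at 5.85, 5.32 and 6.68 at day 7, and at 4.64, 4.84 and 4.98 after fsk treatment. Full-length NFIA-expressing cells had 12.9, 13.6 and 16.0 FPKM of Pparg at day 0, 40.4, 40.4 and 37.8 at day 7, and 35.6, 33.5 and 35.9 after fsk treatment. Δpro#3 mutant-expressing cells had 8.98, 8.61 and 9.0 FPKM at day 0, 8.56, 7.91 and 7.88 at day 7, and 6.20, 6.93 and 5.71 after fsk treatment. Every full-length NFIA sample lay above every other sample, and every Δpro#3 mutant sample lay above the control samples of its time point. The highest group mean of Pparg was 17.5 times the lowest, and only the neighbouring groups of Δpro#3 mutant cells after fsk treatment and control cells at day 7 overlapped in their order.

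Ppard, the PPAR found in most tissues, was the most abundant PPAR gene of control cells and varied far less, with a highest group mean 2.26 times the lowest. Control cells had 21.8, 22.1 and 21.7 FPKM at day 0, 14.4, 13.3 and 13.4 at day 7 and 15.7, 16.6 and 14.8 after fsk treatment. With full-length NFIA the values were 21.4, 21.2 and 21.0, then 19.6, 20.0 and 20.2, then 32.0, 29.3 and 31.6. In Δpro#3 mutant cells they were 19.6, 18.7 and 19.6, then 13.8, 14.5 and 13.7, then 21.5, 19.5 and 22.2. The 3 full-length NFIA samples after fsk treatment were the highest of all 27, and the day 7 samples of control and Δpro#3 mutant cells overlapped at the bottom.

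Ppara, the PPAR of liver and of brown fat that acts on fatty acid oxidation, was near the limit of detection, with 515 fragments over all 27 samples. It was at 0.736, 0.638 and 0.570 FPKM in full-length NFIA-expressing cells at day 7, at 0.380, 0.380 and 0.445 after fsk treatment, and at 0.145, 0.0895 and 0.0821 at day 0. All control and Δpro#3 mutant samples were at 0.0820 FPKM or below. The full-length NFIA samples at day 7, with and without fsk, lay above all of these. At day 0 the lowest full-length NFIA sample (0.0821 FPKM, 7 fragments) and the highest Δpro#3 mutant sample (0.0820 FPKM, 16 fragments) were not separated at such counts. Ppara was below the expression minimum of a mean of 0.5 FPKM in every model and was compared by exact 2-sided permutation over 3 and 3 samples, which cannot give a p below 0.1.

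Of the RXRs, Rxra, the main RXR of liver and fat, moved most among the genes with ample fragments, with a highest group mean 2.95 times the lowest. Control cells had 14.8, 15.9 and 15.9 FPKM at day 0, 12.5, 12.4 and 11.03 at day 7, and 11.95, 12.5 and 12.1 after fsk treatment. With full-length NFIA, Rxra was at 25.4, 23.6 and 23.2 at day 0, 31.5, 31.4 and 30.9 at day 7, and 19.0, 19.6 and 20.1 after fsk treatment. In Δpro#3 mutant cells it was at 17.4, 17.6 and 17.7, at 13.8, 11.6 and 11.9, and at 11.3, 9.79 and 10.7. The 9 full-length NFIA samples were the 9 highest, and the day 7 samples of Δpro#3 mutant and control cells overlapped.

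Rxrb, which is expressed in most cells, stayed between 14.7 and 24.1 FPKM in all 27 samples, with a highest group mean 1.47 times the lowest. Its highest group was full-length NFIA at day 7 (24.1, 22.2 and 22.3 FPKM) and its lowest full-length NFIA at day 0 (16.3, 15.5 and 14.7). The 7 groups between these overlapped from each to the next in their order.

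Rxrg, the RXR of muscle, brain and brown fat, was at 0 in 14 of the 27 samples and had 204 fragments in all. It reached 0.929, 1.15 and 1.59 FPKM in full-length NFIA-expressing cells at day 7 and 0.519, 0.580 and 0.918 after fsk treatment. The other 21 samples were at 0.0503 FPKM or below, those of control and Δpro#3 mutant cells at day 7 included.

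Nr1h3, encoding the LXR of macrophages, liver and fat, had the widest span of the genes with ample fragments, a highest group mean 59.9 times the lowest. Control cells had 0.621, 0.613 and 0.753 FPKM at day 0, 1.23, 1.63 and 1.17 at day 7, and 1.10, 0.820 and 0.850 after fsk treatment. With full-length NFIA it was at 2.03, 1.48 and 1.47 FPKM at day 0, 38.7, 39.2 and 41.1 at day 7, and 29.4, 24.9 and 26.6 after fsk treatment. Δpro#3 mutant cells had 1.48, 1.14 and 1.14, at 5.56, 1.93 and 2.11, and at 2.09, 1.11 and 1.20. The high value in each Δpro#3 mutant group is that of replicate 1, the library with the higher adipocyte marker sum. Macrophages also express Nr1h3. Of the leukocyte markers, Ptprc, Csf1r, Adgre1, Itgam, Tyrobp and Laptm5 had group means of 0.233 FPKM or below, and the sum was carried by Cd68 and Cd14, at means of 10.4 and 3.53 FPKM with full-length NFIA at day 7 against 15.6 and 3.56 in control cells. Their part in the level of Nr1h3 was not tested.

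Nr1h2, the ubiquitous LXR, lay between 26.6 and 42.5 FPKM in all samples, with a highest group mean 1.42 times the lowest. Δpro#3 mutant cells at day 0 were highest, at 42.5, 37.1 and 38.3 FPKM, and control cells at day 7 lowest, at 28.0, 27.8 and 27.1. Full-length NFIA-expressing cells had 32.6, 30.3 and 31.9 FPKM at day 0, 35.1, 33.4 and 35.8 at day 7 and 32.5, 27.9 and 26.6 after fsk treatment. Apart from the highest group, each group overlapped the next in the order.

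**Figure D1:**
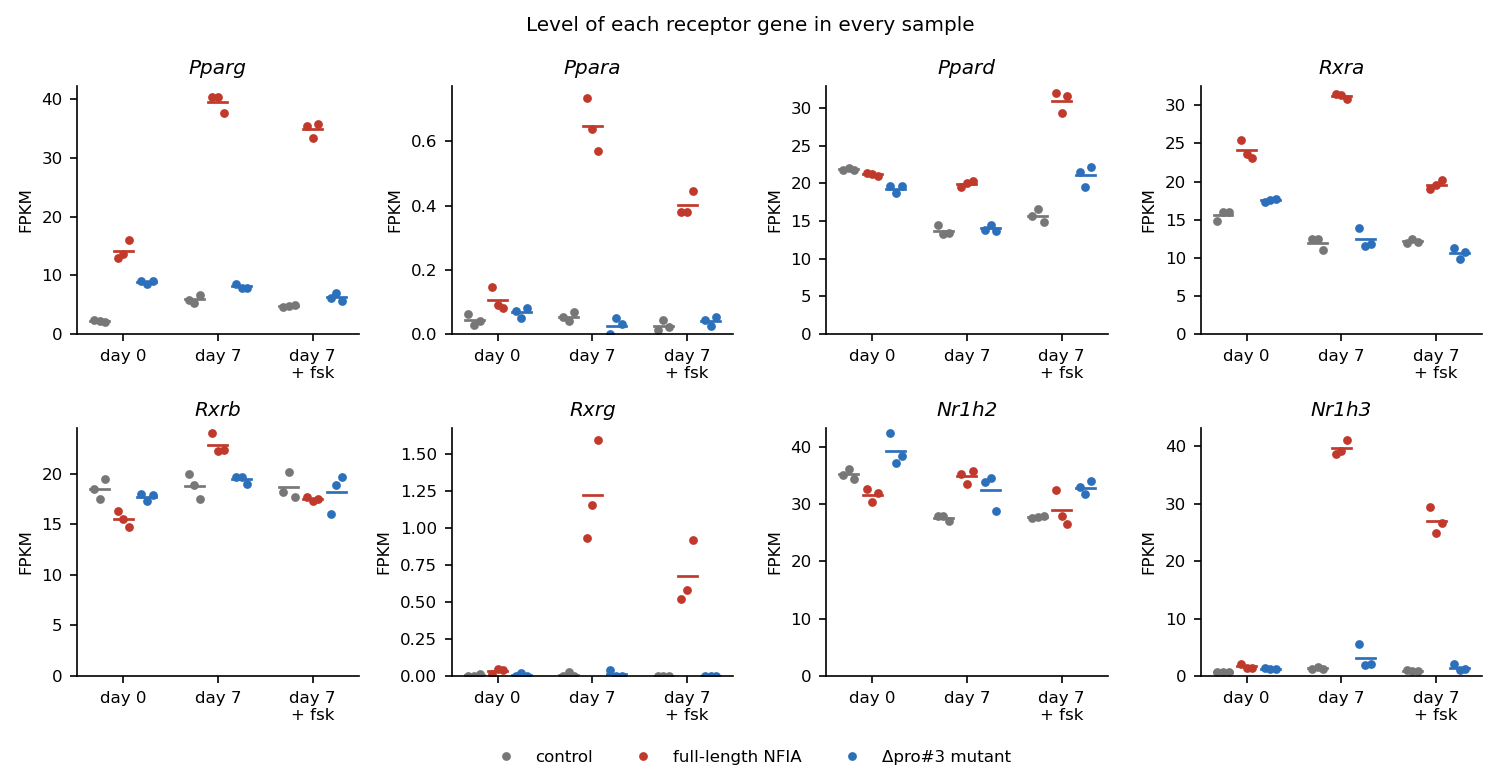
FPKM (linear y axis from 0) of each receptor gene in every sample, 1 panel per gene, by time point and treatment on the x axis. Points are the 3 samples of a group and colours mark the 3 kinds of cell. At day 7 Pparg and Nr1h3 of full-length NFIA-expressing cells stand at 37.8 to 40.4 and 38.7 to 41.1 FPKM, above all control and Δpro#3 mutant samples, whereas Nr1h2 and Rxrb of the 3 kinds of cell lie close together.

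The first comparison asked which receptors each NFIA form changed at day 0, before induction. Full-length NFIA raised Pparg most, and also Rxra and Nr1h3, while Rxrb and Nr1h2 fell slightly. On log2(FPKM + 1) the change of Pparg was 2.22 ± 0.07 (SE; adjusted p = 3.32e-10), that of Rxra 0.60 ± 0.04 (adjusted p = 2.18e-07) and that of Nr1h3 0.67 ± 0.09 (adjusted p = 6.48e-05), with no overlap between samples. Rxrb fell by 0.24 (adjusted p = 0.000718), Nr1h2 fell by 0.15 (adjusted p = 0.0161) and Ppard differed by -0.041 (adjusted p = 0.234). Of the 6 genes tested, 3 rose and 2 fell, where 37.7% of the 12105 genes tested rose and 35.6% fell. The summed muscle markers at day 0 were at 1558 to 1646 FPKM in control cells, 139.7 to 147 with full-length NFIA and 432 to 442 in mutant cells, and their part in these changes was not tested. The call for Nr1h2 was lost without replicate 2 of control (adjusted p = 0.0587) or of full-length NFIA (adjusted p = 0.0647). Ppara had 52 fragments with full-length NFIA against 25 in control cells at day 0, a ratio of 2.58 (95% counting interval 1.57 to 4.33; exact p = 0.1). This interval and those below cover counting error only.

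The Δpro#3 mutant also raised Pparg at day 0, by 1.60 ± 0.07 (adjusted p = 1.09e-08), which was less than full-length NFIA did, the difference between both forms being -0.62 ± 0.07 (adjusted p = 1.87e-05). Rxra rose by 0.16 (adjusted p = 0.00556) and Nr1h3 by 0.44 (adjusted p = 0.0021), both below their change with full-length NFIA. The call for Nr1h3 was lost with all 27 samples in 1 fit (adjusted p = 0.0692). Nr1h2 rose by 0.15 (adjusted p = 0.0198), Ppard fell by 0.17 (adjusted p = 0.000522) and Rxrb differed by -0.058 (adjusted p = 0.297). Of 6 genes 4 rose and 1 fell with the Δpro#3 mutant, against 32.5% and 29.7% of all genes tested. Nr1h2 and Rxrb are thus the genes for which the mutant lay above full-length NFIA (by 0.30 with adjusted p = 0.000261 and by 0.18 with adjusted p = 0.00514), while Pparg, Ppard, Rxra and Nr1h3 lay below it, 2 and 4 of 6 where 33.4% and 31.9% of all genes did so. The difference of -0.24 in Nr1h3 between both forms (adjusted p = 0.0441) had overlapping samples and lost its call without any control sample (adjusted p 0.0517 to 0.0568), without full-length NFIA replicate 1 (0.171), without Δpro#3 mutant replicate 2 or 3 (0.129) and with a pseudocount of 0.1, no filter on low values, only the groups compared in the fit or all 27 samples (0.0563 to 0.323). The rise of Nr1h2 was lost without control replicate 3 (adjusted p = 0.0674) or Δpro#3 mutant replicate 1 (0.0708) and with all 27 samples in 1 fit (0.0601).

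At day 7, after induction, full-length NFIA raised all 6 genes tested, where 31.3% of the 12324 genes tested rose and 41.1% fell. Nr1h3 rose most, by 4.12 ± 0.25 (17.4-fold in FPKM + 1; adjusted p = 1.71e-07), then Pparg by 2.55 ± 0.08 (5.84-fold; adjusted p = 1.18e-09). These 2 passed 3-fold, as 4.87% of all genes did upward. Rxra rose by 1.31 ± 0.07 (2.49-fold; adjusted p = 9.09e-08) and Ppard by 0.51 ± 0.05 (adjusted p = 8.59e-06). The ubiquitous members rose least, Rxrb by 0.27 (adjusted p = 0.00200) and Nr1h2 by 0.32 (adjusted p = 0.00173), and in each of the 6 genes the full-length NFIA samples lay above all control samples. The adipocyte marker sum moved with these genes and the muscle marker sum against them, and the part of either in these changes was not tested.

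Both genes below the expression minimum were also higher with full-length NFIA at day 7. Ppara had 201 fragments against 17 in control cells, a ratio of 12.4 (95% interval 7.58 to 21.8; exact p = 0.1), and Rxrg 120 fragments against 1, a ratio of 126 (22.2 to 5031; exact p = 0.1). Neither p can go lower with 3 samples against 3. All 8 receptor genes were thus higher in every full-length NFIA sample than in any control sample at day 7, of which the 6 in the model passed the test.

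The Δpro#3 mutant gave little of this at day 7. Pparg was higher than in control cells by 0.39 ± 0.08 (adjusted p = 0.00182), Nr1h3 by 0.74 ± 0.25 (adjusted p = 0.0324) and Nr1h2 by 0.22 (adjusted p = 0.0247), whereas Ppard (0.030, adjusted p = 0.665), Rxra (0.046, adjusted p = 0.636) and Rxrb (0.051, adjusted p = 0.511) did not pass the test. So 3 of 6 rose and none fell, with 21.3% of all genes rising and 27.5% falling. Without Δpro#3 mutant replicate 1 Nr1h3 was at 0.37 (adjusted p = 0.00958), and its call was lost without control replicate 1 (0.71, adjusted p = 0.0849) or 3 (0.69, adjusted p = 0.0906), with no filter on low values (0.0678) and with only the groups compared in the fit (0.0604). The call for Nr1h2 was lost without any of the 3 control samples or Δpro#3 mutant replicate 1 or 2 (adjusted p 0.0548 to 0.0924). Ppara had 12 fragments against 17 in control cells (exact p = 0.2) and Rxrg 1 against 1.

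Set directly against full-length NFIA at day 7, the Δpro#3 mutant was lower in 5 of 6 genes and higher in none, where 29.4% of all genes were lower and 34.3% higher. Nr1h3 was lower by 3.38 on the log2 scale (-3.38 ± 0.25, adjusted p = 1.12e-06), Pparg by 2.15 (-2.15 ± 0.08, adjusted p = 5.54e-09) and Rxra by 1.27 (-1.27 ± 0.07, adjusted p = 1.71e-07). Ppard differed by -0.48 (adjusted p = 1.95e-05) and Rxrb by -0.22 (adjusted p = 0.0081). Nr1h2 was the exception, at -0.10 (adjusted p = 0.209) with overlapping samples. For Ppara the ratio of the mutant to full-length NFIA was 0.0487 (0.0248 to 0.0870; exact p = 0.1).

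After fsk treatment the same 2 receptors led. Full-length NFIA was above control cells in Nr1h3 by 3.86 ± 0.14 (adjusted p = 1.08e-09), in Pparg by 2.63 ± 0.07 (adjusted p = 1.57e-10), in Ppard by 0.94 ± 0.07 (adjusted p = 2.74e-07) and in Rxra by 0.64 ± 0.06 (adjusted p = 3.20e-06). Rxrb (-0.088, adjusted p = 0.323) and Nr1h2 (0.056, adjusted p = 0.488) did not pass, so that 4 of 6 rose and none fell against 25.5% and 47% of the 12121 genes tested. The median over all genes was -0.17 in this comparison, and with median-ratio scaling between samples Rxrb turned to 0.075 (adjusted p = 0.407) and Nr1h2 passed at 0.22 (adjusted p = 0.0164). Rxrg had 75 fragments against 0 in control cells, at least 28.1-fold higher over the group, and Ppara 143 against 10, a ratio of 16.1 (8.49 to 34.2), each with exact p = 0.1.

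After fsk treatment of Δpro#3 mutant cells, Ppard was above control cells by 0.40 ± 0.07 (adjusted p = 0.000595), Pparg by 0.32 ± 0.07 (adjusted p = 0.00356) and Nr1h2 by 0.24 (adjusted p = 0.0178), and Rxra was lower by 0.19 (-0.19, adjusted p = 0.0273). That is 3 higher and 1 lower of 6, against 19.5% and 27.1% of all genes. Rxra lost its call without any control sample or without Δpro#3 mutant replicate 2 or 3 (adjusted p 0.0556 to 0.105) and with median-ratio scaling (adjusted p = 0.0772). Nr1h2 lost it without control replicate 1 (adjusted p = 0.0539) or Δpro#3 mutant replicate 3 (0.0635). Nr1h3 was at 0.34 (adjusted p = 0.0604), passing without Δpro#3 mutant replicate 2 (0.44, adjusted p = 0.0306), with a pseudocount of 0.1 (adjusted p = 0.0412) and with the replicate number as a block (adjusted p = 0.0143). This difference rested in part on Δpro#3 mutant replicate 1, at 2.09 FPKM against 1.11 and 1.20 in replicates 2 and 3. Against full-length NFIA, 4 of 6 were lower and 1 higher, with 24.2% and 42% of all genes, led by Nr1h3 at -3.52 ± 0.14 (adjusted p = 3.38e-09), Pparg at -2.31 ± 0.07 (adjusted p = 6.29e-10), Rxra at -0.83 and Ppard at -0.53. The gene that was higher, Nr1h2 (0.18, adjusted p = 0.0418), was lost without any sample other than full-length NFIA replicate 1 or Δpro#3 mutant replicate 2 (adjusted p 0.056 to 0.162) and under scaling (0.06, adjusted p = 0.496), where all genes had a median of 0.12. It was also lost with no filter on low values, without the trend and with only the groups compared in the fit (adjusted p 0.056 to 0.0809).

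**Figure D2:**
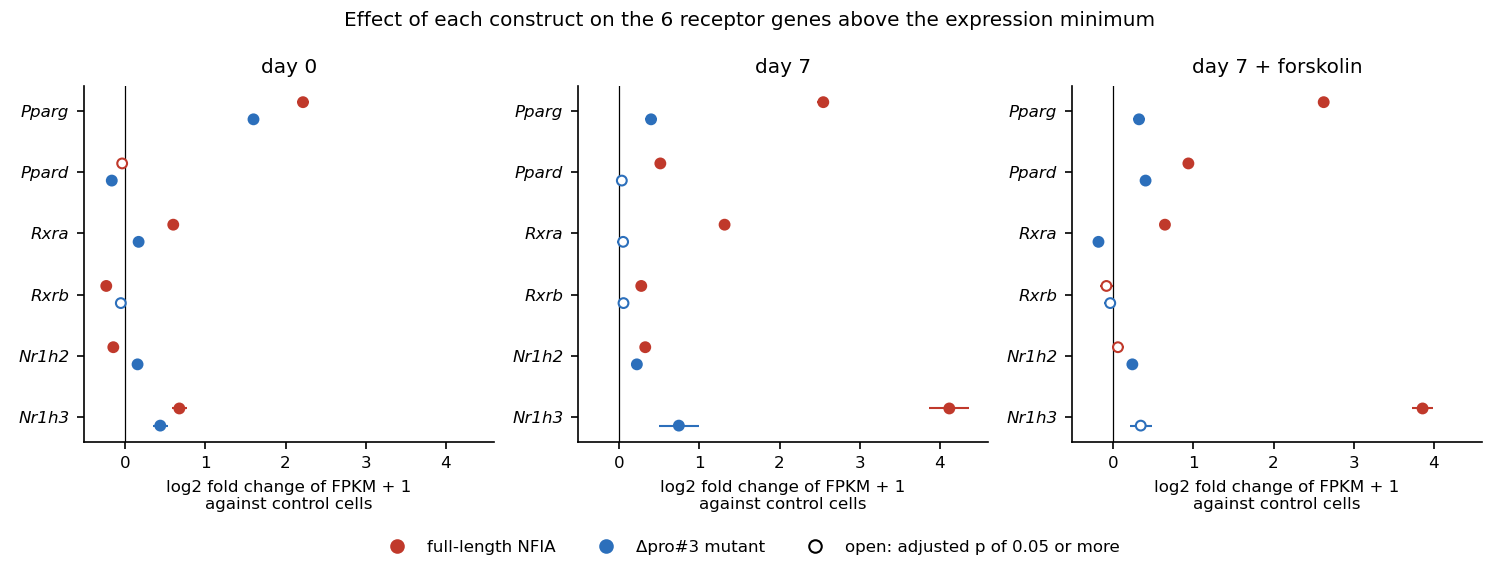
Log2 fold change of FPKM + 1 against control cells (x axis) for the 6 receptor genes in the model, for both NFIA forms, 1 panel per time point. Points are limma estimates, bars are standard errors and open points have an adjusted p of 0.05 or more. At day 0 both forms raise Pparg (2.22 and 1.60), while at day 7 it is 2.55 and 0.39, in the same order.

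Because FPKM is scaled by length, the make-up of each family could be read within a sample, as the share of a member in the summed FPKM of its family. In control cells at day 0 the PPAR pool was 90.5% ± 0.686 Ppard (SD, n = 3) and 9.34% ± 0.635 Pparg. With full-length NFIA the share of Pparg was 39.9% ± 2.95 at day 0 and 65.7% ± 1.10 at day 7, and it was 52.7% ± 0.320 after fsk treatment. In control cells it was 30.2% ± 2.62 at day 7 and 23.5% ± 1.40 after fsk treatment, and with the Δpro#3 mutant 31.4% ± 0.126, 36.6% ± 1.5 and 23.0% ± 2.93. The groups in which most PPAR message was Pparg were thus full-length NFIA at day 7 with and without fsk, where Ppara still made up 0.606% and 1.08%. By fragments not scaled to length, Pparg was 57.1% of the pool with full-length NFIA at day 7 but 44.2% after fsk treatment. The summed PPAR level was 60.1 FPKM with full-length NFIA at day 7, 19.7 in control cells and 22.1 with the Δpro#3 mutant.

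In the LXR pool, Nr1h3 made up 1.85% ± 0.256 in control cells at day 0 and 4.63% ± 0.792 at day 7. With full-length NFIA it went from 4.98% ± 0.776 at day 0 to 53.3% ± 0.803 at day 7 and 48.2% ± 1.60 after fsk treatment. In Δpro#3 mutant cells it was 3.08% ± 0.256 at day 0, 8.74% ± 4.73 at day 7 and 4.25% ± 1.49 after fsk treatment, the wide SD at day 7 being that of replicate 1. Without replicate 1 the mean share at day 7 was 6.05%. The summed LXR level at day 7 was 74.4 FPKM with full-length NFIA, 29.0 in control cells and 35.6 with the Δpro#3 mutant.

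In the RXR pool the order of Rxra and Rxrb differed between the kinds of cell on the length-scaled values, whereas by fragments Rxra was the larger in all 9 groups (53.5% to 75.4%). Rxra was 45.7% ± 1.72 in control cells at day 0 and 39.0% ± 0.613 at day 7, against 60.8% ± 0.395 and 56.5% ± 0.800 with full-length NFIA. The Δpro#3 mutant was at 49.8% ± 0.661, 38.9% ± 2.11 and, after fsk treatment, 36.9% ± 3.83. Rxrg reached 2.22% ± 0.640 with full-length NFIA at day 7. These shares are descriptions with no test.

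**Figure D3:**
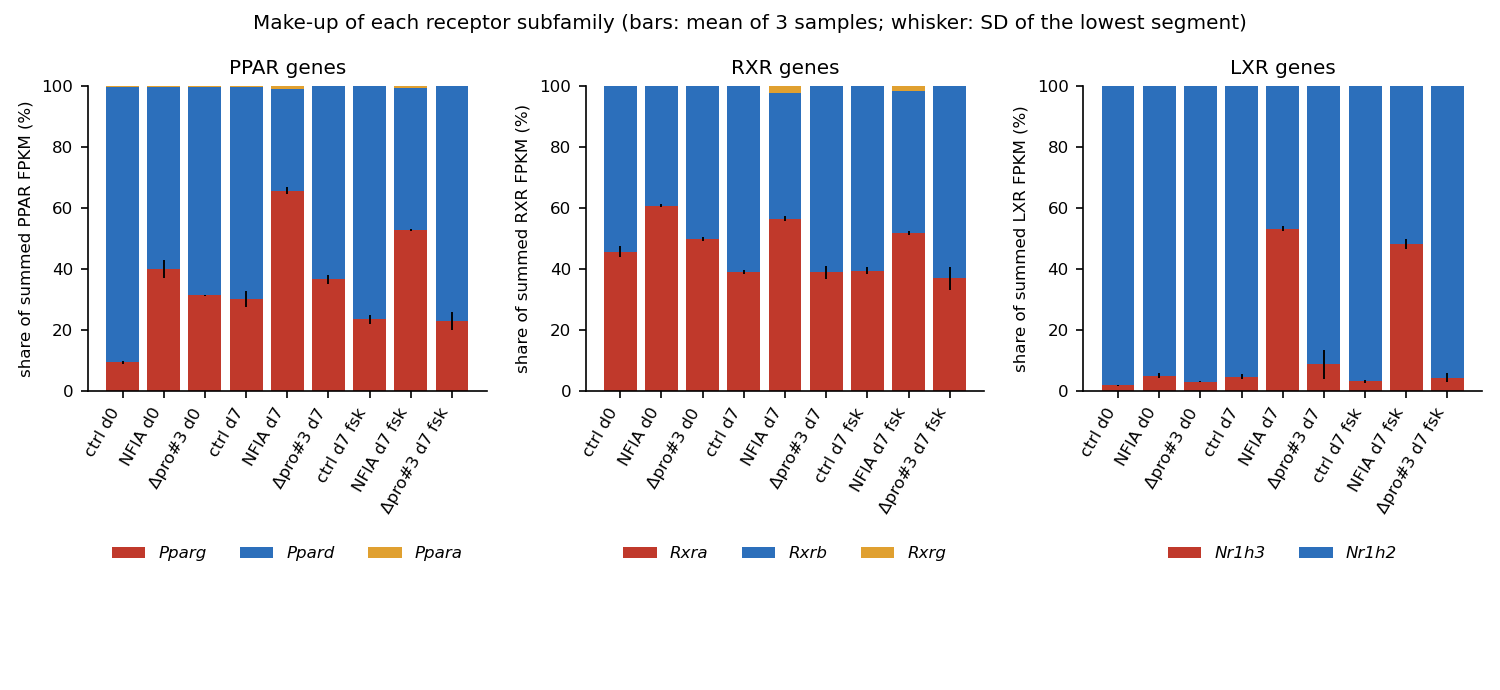
Share of each member in the summed FPKM of its family (y axis, percent, from 0 to 100) in the 9 groups, 1 panel each for PPAR, RXR and LXR genes. Stacked bars are means of 3 samples and the whisker is the SD of the lowest segment. Pparg makes up 65.7% of the PPAR pool and Nr1h3 53.3% of the LXR pool with full-length NFIA at day 7.

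From day 0 to day 7 all 3 kinds of cell passed, by the labels, through the same induction. In control cells, whose muscle marker sum went from 1558 to 1646 FPKM up to 11152 to 12984, Pparg rose by 1.09 ± 0.08 (adjusted p = 7.46e-10) and Nr1h3 by 0.49 ± 0.21 (adjusted p = 0.0388), while Ppard fell by 0.64 (adjusted p = 1.12e-10), Rxra fell by 0.35 and Nr1h2 fell by 0.34. In all, 2 of 6 rose and 3 fell, with 36% of the 12408 genes tested rising and 42.7% falling. The rise of Nr1h3 was lost without any control sample at day 0 or control replicate 1 or 2 at day 7 (adjusted p 0.0544 to 0.126) and with no filter on low values (0.0707). Ppara had 17 fragments at day 7 and 25 at day 0 (exact p = 0.5).

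In full-length NFIA-expressing cells, 4 of 6 rose and 1 fell, against 33.2% and 46.5% of all genes. Nr1h3 rose by 3.94 ± 0.21 (adjusted p = 1.5e-11) and Pparg by 1.42 ± 0.08 (adjusted p = 1.88e-11). Rxrb rose by 0.53 ± 0.05 (adjusted p = 7.89e-08) and Rxra by 0.36 ± 0.06 (adjusted p = 3.38e-05). Ppard was at -0.085 with an adjusted p of 0.0497, a call lost without any sample of day 0 or any full-length NFIA sample of day 7 (adjusted p 0.0509 to 0.137). Among the 9 other settings Ppard passed with a pseudocount of 0.1 and with no filter on low values, but not with the other 7 (adjusted p 0.0529 to 0.24), and under scaling it turned to 0.050. Nr1h2, at 0.13 (adjusted p = 0.0544), passed without full-length NFIA replicate 2, Δpro#3 mutant replicate 1, 2 or 3 of day 7 or Δpro#3 mutant replicate 1 of day 0 (adjusted p 0.0158 to 0.0498), with the replicate block (adjusted p = 0.0489), with only the groups compared in the fit (adjusted p = 0.0274) and with median-ratio scaling (0.27, adjusted p = 0.000593), the median of all genes being -0.11. Ppara went from 52 to 201 fragments, a ratio of 5.78 (4.24 to 8.0), and Rxrg from 5 to 120, a ratio of 35.9 (15.0 to 113), each with exact p = 0.1.

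In Δpro#3 mutant-expressing cells Pparg did not follow. It was at -0.11 ± 0.08 (adjusted p = 0.174), where 2 of 6 genes rose and 3 fell against 32.8% and 46.7% of all genes. Nr1h3 rose by 0.80 ± 0.21 (adjusted p = 0.00206), or by 0.42 without Δpro#3 mutant replicate 1 at day 7 (adjusted p = 0.0012). Ppard fell by 0.44, Rxra fell by 0.47 and Nr1h2 fell by 0.27. Rxrb rose by 0.13 (adjusted p = 0.0376), which was lost without any Δpro#3 mutant sample at day 0 or replicate 1 or 2 at day 7 (adjusted p 0.0542 to 0.114) and with all 27 samples in 1 fit (0.0706).

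The change with time itself differed between the kinds of cell. Each of the 6 genes changed by more, or fell by less, with full-length NFIA than in control cells, where 31.1% of all genes differed in that direction and 40.1% in the other. The difference was 3.45 ± 0.29 for Nr1h3 (adjusted p = 1.94e-08), 0.72 ± 0.09 for Rxra (adjusted p = 1.20e-06), 0.55 ± 0.05 for Ppard, 0.51 ± 0.07 for Rxrb and 0.47 ± 0.09 for Nr1h2. For Pparg it was 0.33 ± 0.11 (adjusted p = 0.0116) but 0.12 with a pseudocount of 0.1 (adjusted p = 0.392) and 0.13 from the fragments themselves (limma-voom, adjusted p = 0.382), so this call depended on the pseudocount. With the Δpro#3 mutant the change of Pparg differed from control cells by -1.20 ± 0.11 (adjusted p = 1.52e-07) and that of Ppard by 0.20 ± 0.05 (adjusted p = 0.00628), 1 of 6 in each direction against 18.9% upward and 25.9% downward. All 6 changes lay below those with full-length NFIA, against 29.5% of all genes, and 0 above, against 33.9%.

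Fsk treatment raised Ppard in all 3 kinds of cell and lowered Rxra, Rxrb, Nr1h2 and Nr1h3 in full-length NFIA-expressing cells. Ppard rose by 0.61 ± 0.06 with full-length NFIA (adjusted p = 2.10e-07), by 0.56 ± 0.06 with the Δpro#3 mutant (adjusted p = 1.36e-06) and by 0.18 ± 0.06 in control cells (adjusted p = 0.0296). The rise exceeded that of control cells by 0.43 ± 0.08 with full-length NFIA (adjusted p = 0.000841) and by 0.37 ± 0.08 with the Δpro#3 mutant (adjusted p = 0.012), and both NFIA forms differed by -0.054 (adjusted p = 0.683). The call in control cells was lost without control replicate 2 or 3 at day 7 or replicate 1 or 2 after fsk treatment (adjusted p 0.0770 to 0.134) and with only the groups compared in the fit (0.0502).

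Rxra answered in the other direction. With full-length NFIA it fell by 0.65 (-0.65 ± 0.07, adjusted p = 5.96e-07), from 30.9 to 31.5 FPKM down to 19.0 to 20.1, while in control cells it was at 0.022 (adjusted p = 0.866). The difference between these responses was -0.67 ± 0.09 (adjusted p = 5.65e-05). With the Δpro#3 mutant Rxra fell by 0.21 (adjusted p = 0.0206), a call lost without Δpro#3 mutant replicate 1 at day 7 (-0.14, adjusted p = 0.119) or replicate 2 after fsk treatment (-0.16, adjusted p = 0.106), under scaling (adjusted p = 0.0526) and with only the groups compared in the fit (adjusted p = 0.106), and this response differed from that with full-length NFIA by 0.44 ± 0.09 (adjusted p = 0.00328).

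Rxrb and both LXRs were lower after fsk treatment with full-length NFIA. Rxrb fell by 0.37 (adjusted p = 0.000301), Nr1h2 fell by 0.26 (adjusted p = 0.00508), and Nr1h3 fell by 0.54 (adjusted p = 0.0453), a call lost without any full-length NFIA sample, any control sample after fsk treatment, control replicate 1 or 3 at day 7 or Δpro#3 mutant replicate 3 after fsk treatment (adjusted p 0.0508 to 0.119) and under scaling (-0.42, adjusted p = 0.126), a pseudocount of 0.1 (adjusted p = 0.121) or no filter (adjusted p = 0.0857). With scaling Nr1h2 was at -0.14 (adjusted p = 0.124), the median of all genes being -0.15. The response of Rxrb differed from that of control cells by -0.36 ± 0.10 (adjusted p = 0.0108). Pparg was at -0.25 in control cells (adjusted p = 0.0199), -0.33 with the Δpro#3 mutant (adjusted p = 0.00212) and -0.17 with full-length NFIA (adjusted p = 0.0533), and these responses did not pass a test of difference (adjusted p 0.306 to 0.751). The call for Pparg in control cells was lost without control replicate 3 at day 7 or replicate 1 or 2 after fsk treatment (adjusted p 0.0509 to 0.104) and under scaling (0.0669), and that with full-length NFIA was gained without control replicate 2 or 3 at day 7 or Δpro#3 mutant replicate 2 or 3 after fsk treatment and under 4 of 9 other settings (adjusted p 0.0212 to 0.0494).

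Nr1h3 was at -0.69 in the Δpro#3 mutant after fsk treatment (adjusted p = 0.0226), with overlapping samples. It was at -0.31 without replicate 1 at day 7 (adjusted p = 0.0983) and at -0.49 without replicate 1 at both times (adjusted p = 0.00252). The call was also lost without replicate 2 or 3 after fsk treatment (adjusted p 0.0915 and 0.0779) and with only the groups compared in the fit (0.135). In control cells Nr1h3 was at -0.28 (adjusted p = 0.413, or 0.0227 in the fit without Δpro#3 mutant replicate 1).

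Counted over the 6 genes, fsk treatment raised 1 and lowered 1 in control cells (7.05% and 13.5% of the 12245 genes tested), raised 1 and lowered 4 with full-length NFIA (13.9% and 41.5%), and raised 1 and lowered 3 with the Δpro#3 mutant (11.9% and 23.9%). In the tests of difference, 1 was higher and 2 lower for full-length NFIA against control cells (9.16% and 21.5%), 1 was higher and 0 lower for the Δpro#3 mutant against control cells (2.47% and 2.5%), and 1 was higher and 0 lower for the Δpro#3 mutant against full-length NFIA (15.8% and 5.88%). Below the expression minimum, Ppara and Rxrg of full-length NFIA-expressing cells were lower after fsk treatment in every sample, with ratios of 0.624 (0.500 to 0.778) and 0.549 (0.405 to 0.738) and exact p = 0.1 for each.

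**Figure D4:**
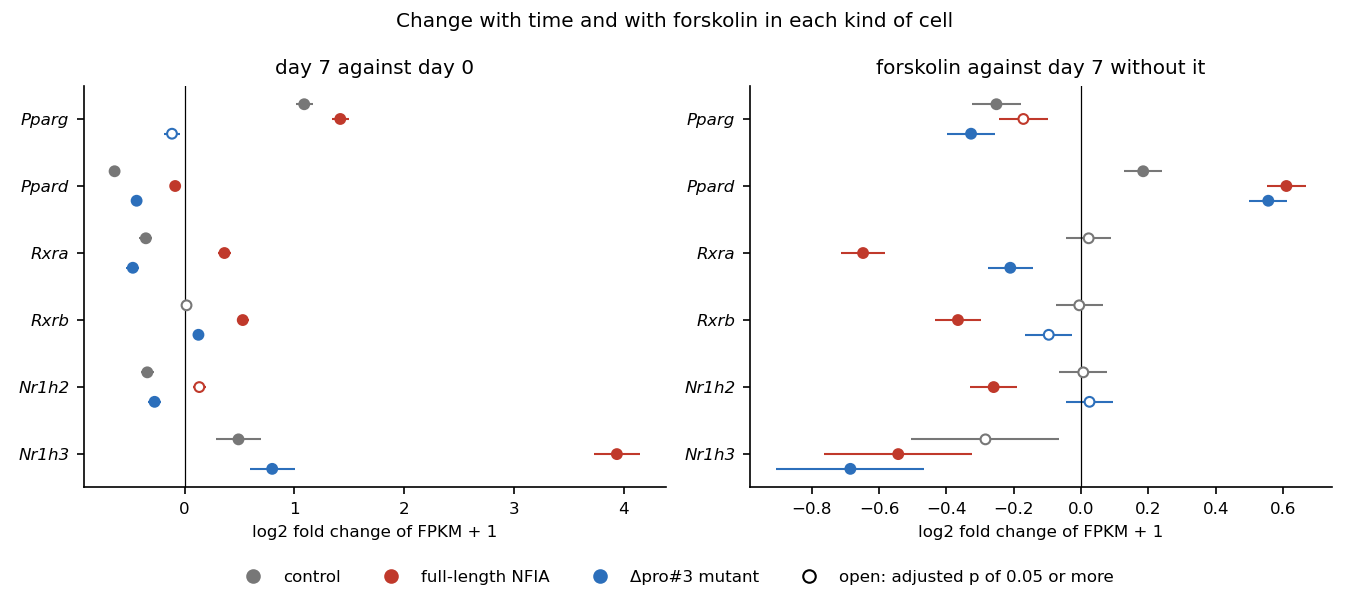
Log2 fold change of FPKM + 1 (x axis) of the 6 receptor genes in the model from day 0 to day 7 and from day 7 to day 7 with fsk, in the 3 kinds of cell. Points are limma estimates, bars are standard errors and open points have an adjusted p of 0.05 or more. Pparg rises with time in control and full-length NFIA cells (1.09 and 1.42) but is at -0.11 with the Δpro#3 mutant, and fsk moves Ppard up and Rxra down with full-length NFIA (0.61 and -0.65).

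Genes known as targets of these receptors were then read from lists, first those of PPARγ, most of which act in lipid storage. Of 25, 24 were tested at day 7, and 23 rose and 1 fell with full-length NFIA, with a median of 4.93 against -0.08 over all genes. At day 7, 31.3% of all genes rose and 41.1% fell with full-length NFIA, and 21.3% and 27.5% with the Δpro#3 mutant. Plin1, the lipid droplet coat protein, was at 344 ± 22.1 FPKM (SD, n = 3) against 2.79 ± 0.175 in control cells (log2 change 6.50), and Cfd, the adipokine adipsin, at 107 ± 5.85 against 0.214 ± 0.136 (6.48). Cfd and 3 others were below the expression minimum in control cells and entered the model through cells in which they were high, so that their rise was fixed by that filter, and of the other 20 genes 19 rose and 1 fell. The gene that fell was Slc2a4, the insulin-responsive glucose transporter of both fat and muscle, at 6.51 ± 0.703 against 23.6 ± 2.04 (-1.71). With the Δpro#3 mutant 18 rose and 2 fell, with a median of 1.05, and Plin1 and Cfd rose by 2.08 and 1.99. Without replicate 1 of the mutant, which stood apart, the counts were 18 and 2 again, with a median of 0.67, and Plin1 and Cfd were at 1.64 and 1.34. At day 0, 14 of the list were tested. With full-length NFIA 12 rose and 2 fell (median 1.02), against 37.7% and 35.6% of all genes. In mutant cells 9 rose and 1 fell (median 0.70), against 32.5% and 29.7% of all genes. Of the 14, 2 were below the minimum in control cells and rose with full-length NFIA. Of the other 12, 10 rose and 2 fell with full-length NFIA. All adipocyte markers but Adrb3 are also in this list, so the list and the marker sum are not independent readings.

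The targets of PPARα and PPARδ, mainly genes of fatty acid oxidation, rose by less. Of 20, 16 were tested at day 7, and 14 rose and 1 fell with full-length NFIA (median 0.95; 31.3% and 41.1% of all genes), against 9 and 3 with the Δpro#3 mutant (median 0.31; 21.3% and 27.5%), or 8 and 4 without mutant replicate 1 (median 0.25). Of these 16, 2 were below the minimum in control cells, and of the other 14, 12 rose and 1 fell with full-length NFIA. Acadm, a mitochondrial acyl-CoA dehydrogenase, was at 387 ± 24.7 FPKM against 42.3 ± 2.41 in control cells (3.17). In Δpro#3 mutant cells it rose by 0.89, or by 0.79 without mutant replicate 1. Fgf21, a secreted stress hormone, was the gene that fell, at 114 ± 8.75 against 177 ± 17.7 (-0.63, adjusted p = 0.0488), and it fell by 1.73 with the Δpro#3 mutant, or by 1.34 without mutant replicate 1. At day 0 the list did not lean one way with full-length NFIA, as 4 of 14 rose and 6 fell, against 37.7% and 35.6% of all genes.

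Of 16 LXR targets, 13 were tested at day 7, and 12 rose and 0 fell with full-length NFIA, with a median of 1.79, against 31.3% and 41.1% of all genes, or 11 and 0 of 12 leaving out the 1 gene below the minimum in control cells. Scd1, the stearoyl-CoA desaturase, was at 4392 ± 300.0 FPKM against 266 ± 14.5 in control cells (4.04), and Fasn, the fatty acid synthase, at 324 ± 8.29 against 19.3 ± 1.34 (4.00). The Δpro#3 mutant gave 5 that rose and 3 that fell, with a median of 0.17, against 21.3% and 27.5% of all genes. Fasn rose there by 0.51 (adjusted p = 0.0435) and Scd1 was at 0.40 (adjusted p = 0.0588). Without mutant replicate 1 the counts were 4 and 3 (median 0.055), with Fasn at 0.23 (adjusted p = 0.0128) and Scd1 at 0.18 (adjusted p = 0.109). In full-length NFIA-expressing cells fsk treatment lowered 7 of 12 LXR targets and raised 2 (median -0.42), where 41.5% of all genes fell and 13.9% rose (median -0.15). Fasn was at -1.24 and Scd1 at 0.70, so that this pair, close together at day 7, moved in opposite directions with fsk. Scd1 also rose with fsk in control cells, to 664 FPKM (1.31), and in mutant cells, to 781 FPKM (1.15), where Fasn was at 0.15 and 0.077 (adjusted p 0.551 and 0.729). Without mutant replicate 1, Fasn passed as a rise with fsk in mutant cells (0.39, adjusted p = 0.00218). The response of 8 of 12 was lower than in control cells and that of 1 higher, against 21.5% and 9.16% of all genes.

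The coregulators moved in both directions. Of 14 coactivators tested at day 7, 6 rose and 3 fell with full-length NFIA (median 0.00), and of 10 corepressors 7 rose and 2 fell (median 0.36), against 31.3% and 41.1% of all genes. Ppargc1a, encoding the PPARγ coactivator PGC-1α that drives mitochondrial and thermogenic genes, was at 4.23 ± 0.0711 FPKM against 1.08 ± 0.158 (1.34) and rose again with fsk by 1.51, to 14 ± 1.79. In control cells Ppargc1a was also higher after fsk treatment, at 2.03 ± 0.235 FPKM. Its level in Δpro#3 mutant cells was 1.03 ± 0.0908 FPKM at day 7 and 1.20 ± 0.284 after fsk treatment. Kmt2d, a histone methyltransferase, rose by 0.58, whereas Pprc1, a further relative of PGC-1α, fell by 1.25 and Med1, the Mediator subunit that contacts nuclear receptors, fell by 0.29. Among corepressors, Nrip1 (RIP140) was at 17.8 ± 1.25 against 7.16 ± 0.419 (1.20) and Hdac3 rose by 0.52, while Sirt1 fell by 0.46 and Rb1 by 0.33 (-0.33). Nrip1 was at -0.39 with the Δpro#3 mutant.

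Among other partners of RXR, 7 of 11 were tested at day 7, and 4 rose and 2 fell with full-length NFIA (median 0.31), against 31.3% and 41.1% of all genes. Rara, a retinoic acid receptor, was at 14.4 ± 0.431 FPKM against 6.12 ± 0.534 (1.12), and Rarb, another one, at 0.245 ± 0.0585 against 2.59 ± 0.410 (-1.52). Nr4a1, an orphan receptor that is induced early by cAMP, was at 12.2 ± 0.119 against 15.5 ± 0.288 (-0.32) and rose with fsk by 3.27 in these cells. Its level was also higher after fsk treatment in control cells, at 28.2 ± 3.29 FPKM. In Δpro#3 mutant cells it was at 10.3 ± 0.791 FPKM at day 7 and 19.9 ± 2.55 after fsk treatment. Vdr, the vitamin D receptor, was at 20.0 ± 2.58 FPKM with full-length NFIA at day 7 against 12.6 ± 1.13 in control cells (0.63), and fsk took it to 302 ± 3.39 with full-length NFIA (3.85), 112 ± 4.41 in control cells (3.05) and 69.3 ± 1.98 with the Δpro#3 mutant (1.96). These responses of Vdr differed from that of control cells by 0.80 ± 0.11 with full-length NFIA and by -1.09 ± 0.11 with the Δpro#3 mutant, each past the test.

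Of 29 other nuclear receptors, 17 were tested at day 7, and 9 rose and 4 fell with full-length NFIA (median 0.21), against 31.3% and 41.1% of all genes. Of these 17, 2 were below the minimum in control cells, and of the other 15, 7 rose and 4 fell. Hnf4a, a receptor of liver and gut, is one of the 2, at 2.95 ± 0.226 FPKM against 0.0061 ± 0.0106, and entered the model through full-length NFIA-expressing cells, so that no test of its rise is given. Nr4a3 fell by 1.5 and Nr2f2 (COUP-TFII) fell by 0.68. In mutant cells Hnf4a was at 0.320 ± 0.0697 FPKM.

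**Figure D5:**
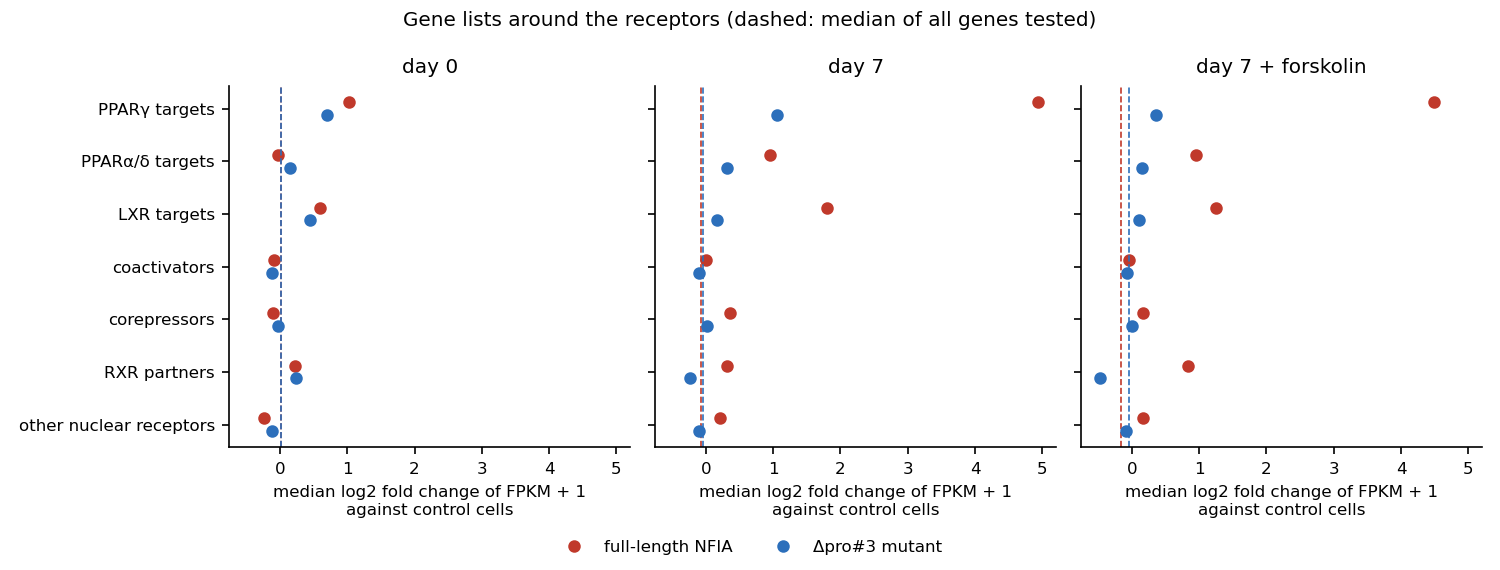
Median log2 fold change of FPKM + 1 against control cells (x axis) over the tested genes of 7 lists, for both NFIA forms, 1 panel per time point. Dashed lines are the medians of all genes tested. At day 7 the PPARγ, LXR and PPARα/δ target lists stand at 4.93, 1.79 and 0.95 with full-length NFIA and at 1.05, 0.17 and 0.31 with the Δpro#3 mutant, while coactivators stand at 0.00 and -0.10.

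The receptors fell into those that moved together over the 27 samples and those that did not. Pearson's r of log2(FPKM + 1) was 0.903 between Pparg and Nr1h3 and 0.958 between Ppara and Rxrg, the latter pair from low counts, but 0.187 between Pparg and Rxrb and -0.01 between Pparg and Nr1h2. These points share libraries and the same 9 groups, so r mostly restates the differences between groups given above.

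Among 12604 genes, those most like Nr1h3 over the 27 samples were Lipe (hormone-sensitive lipase, r = 0.993), Agpat2 (0.993) and Vit (0.992). Those most like Pparg were Plin4, Hfe and Nol4l (0.958 each), and those most like Rxra were Srebf1 (0.975), L3hypdh (0.973) and Rnf24 (0.967). Ppard was closest to Zc3h12a (0.947), Etnk1 (0.931) and Pitpnm1 (0.918), and Rxrg to Tlr8 (0.985), Arhgap27 (0.982) and 5930438M14Rik (0.979). The likeness of Rxrg rests on low counts, as Rxrg was at 0 in 14 of the 27 samples. Rxrb and Nr1h2 had no gene above 0.849 (Prpf40b) and 0.887 (Rtkn). The likeness is over the same 27 samples in each case.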

How the data were processed

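Polyadenylated RNA was sequenced with strand-specific libraries. Per the labels and the study's methods, the authors aligned reads to mm9 with STAR 2.5.3a, kept uniquely mapped fragments, counted them per gene on the matched strand and deposited FPKM for each sample, not log-transformed and not scaled between samples. All FPKM values were whole multiples of 1 step (100% within a tolerance of 0.05), so fragments per gene could be recovered. For 3 against 3 samples at these depths (9567769 to 27230965 fragments) low genes remain the least precise.

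The models were fitted with limma 3.58.1 (R 4.3.3) on log2(FPKM + 1), with trended moderated variances, over all genes with a mean of 0.5 FPKM or more, per time point (9 samples) and for time or fsk (18 samples). P-values are 2-sided and Benjamini-Hochberg adjusted within a comparison, with a threshold of 0.05; "over 3-fold" also asks for that change in FPKM + 1. Fold changes on this scale understate those of low genes. Ppara and Rxrg were compared by exact permutation (Python 3.11.15, scipy 1.17.1), in 30 tests with an adjusted p of 0.1875 or more, and by fragment ratios with 95% counting intervals and, where a group had none, a floor of 3 fragments over the group. Simulated data with 200 genes changed 4-fold gave 100% recovery, and 15 calls on unchanged genes among the 12315 genes tested for full-length NFIA against control at day 7. The simulated samples shared a fixed spread and the changed genes were well expressed. This recovery therefore does not bear on smaller changes or on replicates that stand apart.

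The members and gene lists were chosen with earlier results of these data known. Named list genes are, per list, the 2 largest rises and falls with full-length NFIA against control at day 7 among genes that passed, with a mean of 1 FPKM or more and no overlap, and some that the rule names are not reported here. For likeness, the 3 genes with the highest r were taken. Replicate numbers did not pair samples (mean correlations of same-numbered deviations 0.0139, -0.0314 and -0.0019, with 1 of 27 above 0.1). Alternatives were the pseudocount, the expression minimum, scaling, sample sets, trend, limma-voom, the replicate block and leaving out each sample. Promoter sequences are from RefSeq and matched 8 of 8 genes.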

Additional observations from a re-analysis of the deposited data

Results flagged for a closer look

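The results given here are those in which a change with time or with fsk differed between kinds of cell by a test of the difference itself (limma, adjusted p under 0.05), and they are stated as values without explanation. For the change from day 0 to day 7, full-length NFIA exceeded control cells by 3.45 for Nr1h3, 0.72 for Rxra, 0.55 for Ppard, 0.51 for Rxrb, 0.47 for Nr1h2 and 0.33 for Pparg (adjusted p 1.94e-08 to 0.0116), all in log2(FPKM + 1). The value for Pparg did not pass with a pseudocount of 0.1 (0.12, adjusted p = 0.392) or with limma-voom (0.13, adjusted p = 0.382). The Δpro#3 mutant differed from control cells by -1.20 for Pparg (adjusted p = 1.52e-07) and 0.20 for Ppard (adjusted p = 0.00628). It differed from full-length NFIA by -3.14 for Nr1h3, -1.53 for Pparg, -0.83 for Rxra, -0.41 for Nr1h2, -0.40 for Rxrb and -0.35 for Ppard (adjusted p 2.60e-09 to 0.000637).

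For the response to fsk, full-length NFIA differed from control cells by 0.43 for Ppard (adjusted p = 0.000841), -0.67 for Rxra (adjusted p = 5.65e-05) and -0.36 for Rxrb (adjusted p = 0.0108). The Δpro#3 mutant differed from control cells by 0.37 for Ppard (adjusted p = 0.012) and from full-length NFIA by 0.44 for Rxra (adjusted p = 0.00328). Pparg is thus the gene whose change with time was lower with the mutant than in both other kinds of cell, and Ppard the gene whose response to fsk exceeded that of control cells with both NFIA forms. Groups of 3 samples are too small for a test of single outlying samples.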

How the results depend on the processing

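Of 1131 fold changes of the 6 tested genes under other settings, 1079 kept their direction and side of the threshold, 32 lost the call, 15 gained it and 5 turned direction, and with samples left out 1783, 83, 20 and 22 of 1908 did so. Under median-ratio scaling Rxrb turned to 0.075 (full-length NFIA) and 0.0036 (Δpro#3 mutant) against control cells after fsk, to -0.072 between both forms and to 0.041 for fsk in control cells, and Ppard to 0.050 for time with full-length NFIA. Of the counts past the threshold, that of the Δpro#3 mutant against control at day 0 was 3 in place of 5 with all 27 samples in 1 fit. For fsk it was 1 in place of 2 in control cells (scaling, or only the groups compared), 3 in place of 5 with full-length NFIA (scaling) and 2 in place of 4 with the Δpro#3 mutant (only the groups compared). For the difference in fsk response it was 5 in place of 3 between full-length NFIA and control (no filter), and 2 (no filter, or a minimum of 5 FPKM) or 3 (all 27 samples) in place of 1 between both forms. The causes were not tested.

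With 1 sample left out, the counts ranged from 1 to 3 for the Δpro#3 mutant against control at day 7, 2 to 4 after fsk, 0 to 2 for fsk in control cells, 2 to 4 with the Δpro#3 mutant and 1 to 2 for the difference between both forms. Values that turned direction were Rxra (-0.028 to 0.090) for the mutant against control at day 7, Rxrb after fsk for the mutant against control (-0.095 to 0.043) and against full-length NFIA (-0.0072 to 0.13), and Nr1h2 for full-length NFIA after fsk (-0.026 to 0.11). For time they were Rxrb in control cells (-0.026 to 0.066) and Nr1h3 for the mutant minus control (-0.067 to 0.52). For fsk in control cells they were Rxra (-0.032 to 0.052), Rxrb (-0.057 to 0.038) and Nr1h2 (-0.0073 to 0.015), with the mutant Nr1h2 (-0.056 to 0.074), for the mutant minus control Nr1h2 (-0.063 to 0.068), and for the mutant minus full-length NFIA Nr1h3 (-0.35 to 0.23). None of these passed the test in either direction. Leaving out Δpro#3 mutant replicate 1 at every time point, chosen after seeing the data, gave -0.028 for Rxra against control at day 7, 0.043 for Rxrb against control after fsk, 0.0018 for Rxrb in the fsk response of the mutant minus control, 0.058 for Nr1h3 in that of the mutant minus full-length NFIA, and a count of 2 there.

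With the replicate block, 123 of 126 fold changes and 21 of 21 counts kept their call. The exceptions were Nr1h3 with the Δpro#3 mutant after fsk (0.34, adjusted p = 0.0143), Ppard (-0.085, 0.0648) and Nr1h2 (0.13, 0.0489) for time with full-length NFIA. By fragments in place of FPKM, 47 of 72 shares moved by more than the SD. With r over the 9 group means, or Spearman's rho over the 27 samples, 27 of 42 ranks of likeness left the top 3. Ppara and Rxrg are limited by depth, with 515 and 204 fragments over 27 samples.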
